A study of Homo sapiens with 12 samples.

Results

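RNA levels were compared between a pair of human B-cell precursor acute lymphoblastic leukaemia lines, TOM-1 and RS4;11, in untreated culture. The comparison used 6 of the 12 libraries of the series, all those whose labels name a control culture: 3 of TOM-1 and 3 of RS4;11. All 6 came from lymphoblasts labelled wild type that grew in RPMI medium with fetal bovine serum and were sampled in log phase after 24 h without drug, and RNA was captured by its poly(A) tail. The other 6 libraries came from the same lines after 24 h with ADI-PEG20, a pegylated arginine deiminase that breaks down arginine, at 1000 ng/ml, and they entered the filter on low counts and the estimate of the spread but no comparison. The study asked about low ASS1, the enzyme that makes argininosuccinate on the way to arginine, in Philadelphia chromosome-positive leukaemia. TOM-1 is a Philadelphia chromosome-positive line, in which the BCR-ABL1 fusion gives a constantly active tyrosine kinase, and RS4;11 carries a fusion of KMT2A with AFF1. Each subtype is 1 line here, so a difference between subtypes and a difference between these individual lines cannot be told apart. The labels do not say that replicates were separate cultures, so p-values measure only the spread between these samples, which may be technical.

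In B-cell precursors, transcription factors such as PAX5, EBF1 and the Ikaros family hold the B lineage, and the RAG enzymes and terminal transferase assemble the immunoglobulin genes that feed the pre-B receptor. KMT2A fusions are known for sustained expression of the HOXA cluster genes and their cofactor MEIS1, with a more immature surface phenotype. BCR-ABL1 is known to signal through STAT5, the RAS and ERK cascade and PI3K.

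The control libraries held between 20701657 and 35956959 counts. TOM-1 control replicate 3 stood apart from the others. It had reads for 14963 genes, against 19857 to 21997 in the other 11 libraries, and 17.8% of its reads fell in ribosomal protein genes, against 8.36% and 8.13% in replicates 1 and 2 of its group. Its correlation with those replicates, on log2 values across genes, was 0.948 and 0.945, and it was at least 0.989 for each other pair within a group. Results are therefore given with this library and, where they move, without it. Levels are in CPM, the count of a gene scaled to a common library size and by library composition (TMM factors), as mean ± SD with n = 3 unless stated, and are compared only within a gene. Differences are log2 TOM-1 minus RS4;11 with the standard error (SE) from edgeR's quasi-likelihood fit, and a gene is called at a Benjamini-Hochberg adjusted p under 0.05.

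Of 17349 genes tested, 34.7% were called: 16.2% higher in TOM-1 and 18.4% lower. Without TOM-1 replicate 3, 52.8% of 18321 genes were called, 25.4% higher and 27.5% lower. Counts of called genes in the lists below are to be read against these shares. A fit of the 6 control libraries alone called 3548 genes. All 5880 genes called with and without replicate 3 had the same sign in each. At least a 2-fold difference was fitted for 4062 of the called genes, 1927 higher and 2135 lower. The median difference over all genes tested was 0.01, and it was -0.01 without replicate 3. The libraries of the lines did not overlap for 42.7% of genes.

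**Figure D1:**
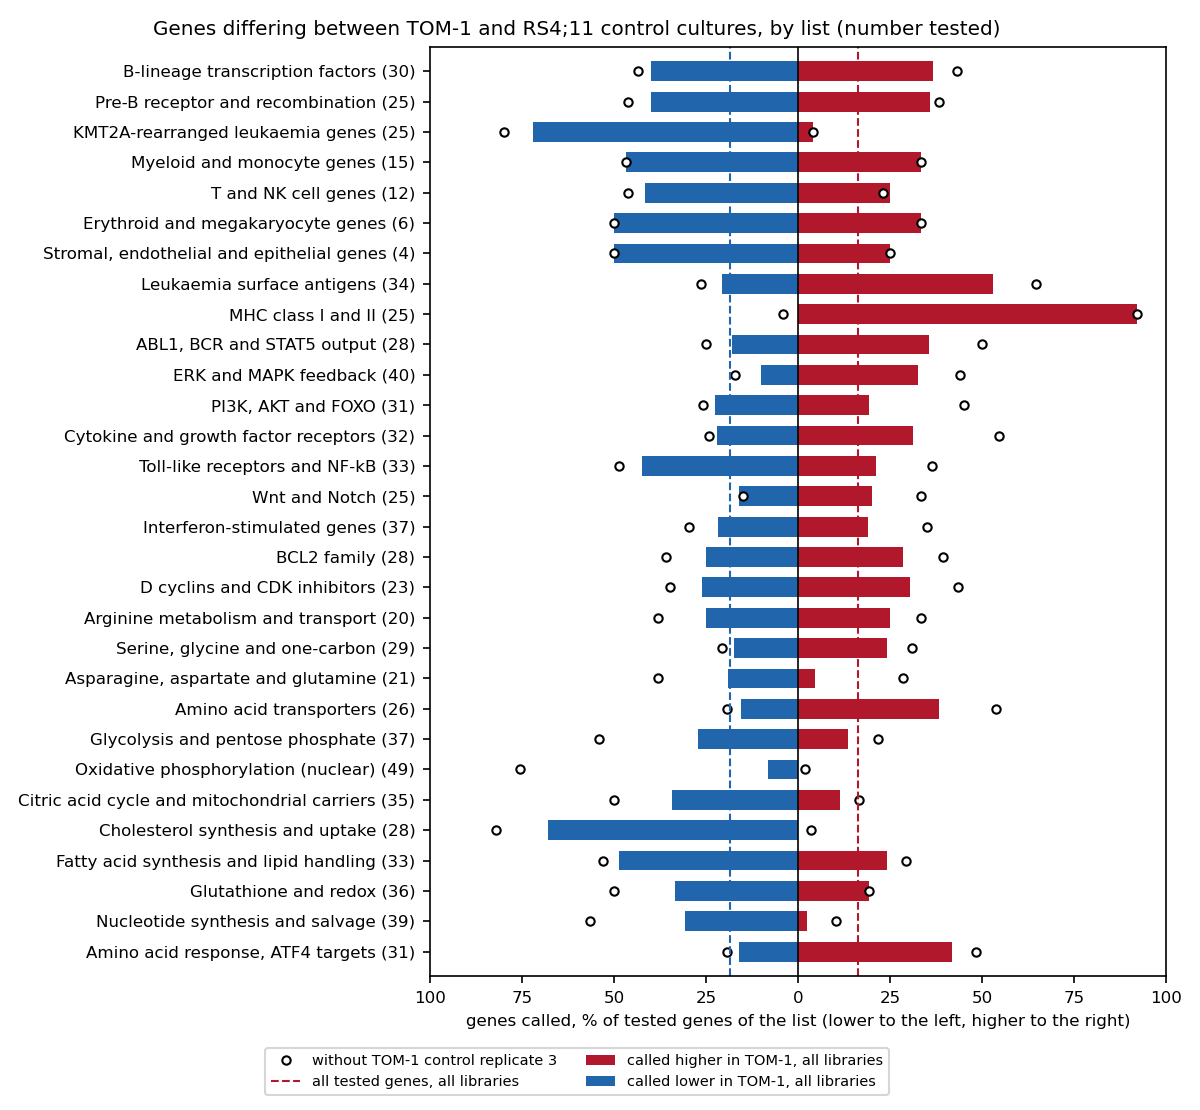
Share of tested genes called higher and called lower in TOM-1 (horizontal axis, percent of the genes tested) for each of the 30 gene lists and for all genes tested. The list of MHC genes reaches 92.0% higher, and the cholesterol list 67.9% lower and 0 higher.

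Some genes had reads in one line only. Among 10973 tested genes at 5 CPM or more in either line, 183 (1.67%) had no read in any TOM-1 control library and 85 (0.775%) none in any library of the other line. For such a gene the fold is a lower bound, set against 3 counts per library. The bound was large for PRSS12, a secreted serine protease, at least 2409-fold lower in TOM-1. CPXM1, a carboxypeptidase family member, was at least 1545-fold lower and PRL, the hormone prolactin, at least 1106-fold lower. In the opposite direction SDK2, a cell adhesion protein, was at least 850-fold higher in TOM-1, and PRSS21, a membrane-anchored serine protease, at least 719-fold higher.

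Promoters of 5 genes with reads almost only in one line are shown to let the reader see how dense they are in CG, the pair that DNA methylation acts on. ASS1, MEIS1 and CD44 had no read in TOM-1, PSAT1 had 9 reads in a single TOM-1 library, and OAT had none in RS4;11. Each sequence is the 250 bases before the RefSeq start of the gene, on GRCh38.p14, 5′ to 3′ on the strand of the gene, with every CG in capitals. For MEIS1, CD44 and OAT the RefSeq start lies downstream of the GENCODE start, so these stretches fall inside the gene as GENCODE draws it, in part for OAT and in full for the other two.
ASS1, chr9:130444457-130444706, plus strand: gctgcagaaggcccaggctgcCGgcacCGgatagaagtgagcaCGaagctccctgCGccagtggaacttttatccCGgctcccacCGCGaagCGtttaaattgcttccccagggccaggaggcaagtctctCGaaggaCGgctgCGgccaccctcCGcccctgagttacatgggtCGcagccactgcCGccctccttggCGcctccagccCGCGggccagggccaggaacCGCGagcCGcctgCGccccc
PSAT1, chr9:78296875-78297124, plus strand: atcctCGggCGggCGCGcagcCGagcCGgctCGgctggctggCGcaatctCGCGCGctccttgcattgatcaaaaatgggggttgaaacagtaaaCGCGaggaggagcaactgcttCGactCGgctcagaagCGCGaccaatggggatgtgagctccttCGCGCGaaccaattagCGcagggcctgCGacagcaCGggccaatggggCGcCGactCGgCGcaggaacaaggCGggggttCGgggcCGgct
MEIS1, chr2:66434875-66435124, plus strand: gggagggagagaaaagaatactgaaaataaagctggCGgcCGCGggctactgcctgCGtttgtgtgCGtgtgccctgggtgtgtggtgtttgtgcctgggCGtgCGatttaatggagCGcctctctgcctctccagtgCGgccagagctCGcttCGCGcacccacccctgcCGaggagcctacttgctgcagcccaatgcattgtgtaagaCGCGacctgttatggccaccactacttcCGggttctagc
CD44, chr11:35138921-35139170, plus strand: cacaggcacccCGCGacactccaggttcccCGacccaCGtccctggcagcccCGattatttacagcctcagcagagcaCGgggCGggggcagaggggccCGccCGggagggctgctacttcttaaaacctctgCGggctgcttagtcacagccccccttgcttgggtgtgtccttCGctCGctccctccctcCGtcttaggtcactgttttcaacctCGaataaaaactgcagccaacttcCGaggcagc
OAT, chr10:124418924-124419173, minus strand: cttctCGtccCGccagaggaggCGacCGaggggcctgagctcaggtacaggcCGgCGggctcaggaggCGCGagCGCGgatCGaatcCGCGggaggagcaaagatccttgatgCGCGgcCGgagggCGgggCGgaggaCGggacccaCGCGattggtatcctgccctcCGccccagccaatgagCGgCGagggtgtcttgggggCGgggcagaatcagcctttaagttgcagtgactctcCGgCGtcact

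CG pairs numbered 21 in the ASS1 promoter, 30 in that of PSAT1, 16 in that of MEIS1, 15 in that of CD44 and 27 in that of OAT. The median was 11 over all 27303 promoters of the RefSeq table and 21 over the 8679 promoters of tested genes at 5 CPM or more. It was 19 over the 135 promoters found for the 183 genes absent from TOM-1, and 18 over the 53 found for the 85 genes absent from the other line. The letters GGGCGG, the GC box bound by SP1-type factors, were searched on both strands, and each match holds a CG. Counted without overlap, OAT had 3 matches, ASS1 and CD44 2 each, PSAT1 1 and MEIS1 none. In OAT a further match shares 1 base with a counted match. At least 1 match was present in 42.3% of all promoters, in 68.5% of those of tested genes at 5 CPM or more, in 63.7% of those absent from TOM-1 and in 71.7% of those absent from the other line. A match is a description of the letters and not a binding site, and methylation was not measured here.

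Most genes of a list known from KMT2A-rearranged leukaemia differed between the lines. Of 25 tested, 18 were lower in TOM-1 and 1 was higher, with a median difference of -3.78 (-3.68 with absent genes at their bound). Without replicate 3 the counts were 20 lower and 1 higher, with a median of -3.74. HOXA9 (chr7:27162435-27175180, GRCh38), a homeobox factor of stem and progenitor cells, was at 79.7, 69.8 and 80.7 CPM in RS4;11 replicates 1, 2 and 3 and at 0 in every TOM-1 library. HOXA10, its neighbour, was at 91.7, 79.5 and 78.4 CPM against 0, at least 678-fold apart. MEIS1 (chr2:66433452-66573869), the cofactor whose promoter is shown above, was at 72.8, 70.4 and 68.4 CPM against 0. These markers matched the labels in each library.

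Not every HOXA gene was absent from TOM-1. HOXA5 was at 1.58 ± 0.452 CPM there and at 18.7 ± 0.919 CPM in the other line, a difference of -3.57 ± 0.24 (SE, adjusted p = 2.65e-07). HOXA13, at the far end of the cluster, was below 1 CPM in each of the 6 libraries and was not called (-0.87 ± 1.27, adjusted p = 0.647). A run of 5 neighbouring genes from HOXA7 to HOXA11 was at or under the floor of 3 counts per library in TOM-1. An antisense gene overlaps 62.5% of the exonic bases of HOXA7 and a sense gene 15.9% of those of HOXA9, so part of their reads could belong to the partner.

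PBX3, which pairs with HOXA9 and MEIS1, was expressed in both lines at 15.7 ± 1.48 and 157 ± 9.46 CPM, lower in TOM-1 by 3.32 ± 0.13 on the log2 scale (adjusted p = 8.62e-09). PROM1, which codes for the progenitor surface protein CD133, was at 0.369, 0.429 and 0.993 CPM in TOM-1 and at 412, 431 and 378 CPM in the other line (-9.51 ± 0.48). LAMP5 was absent from TOM-1 and at least 1023-fold lower. The 1 gene of the list higher in TOM-1 was LGALS1, the lectin galectin 1, at 35.3, 41.5 and 118 CPM against 17.6 to 21.5 CPM (1.71, and 0.96 without replicate 3). FLT3, the receptor often high in KMT2A-rearranged leukaemia, did not pass the test: it was at 163 ± 32.2 and 177 ± 2.58 CPM (-0.12 ± 0.14, adjusted p = 0.55, and 0.03 without replicate 3). CDK6 was called lower in TOM-1 at -0.92 ± 0.29 (adjusted p = 0.0287), a difference of -0.57 without replicate 3. Its call was lost without replicate 1 or replicate 2 of the other line (-0.89 and -0.92, adjusted p = 0.0728 and 0.0688).

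Among 30 transcription factors of the B lineage, 11 were higher in TOM-1 and 12 lower, with a median of 0.02. Called genes were thus split almost evenly between the lines. IKZF3, which codes for Aiolos, an Ikaros factor that rises as pre-B cells mature, was at 79.9, 79.3 and 75.1 CPM in TOM-1 and at 6.44, 6.67 and 4.35 CPM in the other line (3.74 ± 0.17, adjusted p = 2.28e-08). Its relative IKZF2, which codes for Helios, went the opposite way: 13.9 ± 8.24 against 133 ± 10.9 CPM (-3.25 ± 0.39, adjusted p = 4.09e-05). TCF4, an E protein, and ETV6, an ETS repressor often rearranged in childhood leukaemia, were higher in TOM-1 by 2.98 and 2.50. SPIB, an ETS factor, and BCL6, the germinal centre repressor, were lower by 2.30 and 1.59 on the log2 scale, and SPIB shares 19.6% of its exonic bases with another gene.

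The lineage keepers differed less. EBF1 was at 163, 169 and 80.1 CPM in TOM-1 and between 230.2 and 270.1 CPM in RS4;11, a called difference of -0.86 ± 0.22 (adjusted p = 0.00864) and of -0.60 without replicate 3. PAX5 was at 933, 945 and 443 CPM against 634 to 752 CPM, and the lines overlapped because of replicate 3. It was not called with all libraries (0.13 ± 0.22, adjusted p = 0.702), and without replicate 3 it was called higher in TOM-1 (0.41, adjusted p = 3.68e-05). IKZF1, which codes for Ikaros, was at 174 ± 55.4 and 325 ± 29 CPM (-0.90 ± 0.20, adjusted p = 0.00411, and -0.66 without replicate 3).

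Genes of the pre-B receptor and of recombination were also called in both directions, 9 higher and 10 lower of 25 (median -0.20). DNTT, terminal transferase, which adds untemplated bases at immunoglobulin joints, was at 3267, 3271 and 4031 CPM in TOM-1 and at 79.1, 88.8 and 65 CPM in RS4;11, a difference of 5.50 ± 0.18 (adjusted p = 4.85e-09). TCL1A, a coactivator of AKT in early B cells, was higher by 4.90 ± 0.27. RAG1, which cuts the recombination signals together with RAG2, was at 752, 732 and 220.3 CPM against 177 to 217 CPM (1.48 ± 0.34, adjusted p = 0.00443), so replicate 3 lay just above the other line. RAG2 was not called (-0.33 ± 0.20, adjusted p = 0.241).

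The surrogate light chain did not separate the lines firmly. IGLL1 was at 709, 687 and 1569 CPM in TOM-1 and at 712, 813 and 744 CPM in the other line, not called with all libraries (0.39 ± 0.26, adjusted p = 0.28) or without replicate 3 (-0.12, adjusted p = 0.185). VPREB1, its partner, was called higher in TOM-1 at 1.04 ± 0.33 (adjusted p = 0.0303), with 819.8 CPM in replicate 3 and 285.6 and 269.1 CPM in replicates 1 and 2. Without replicate 3 its difference was 0.31, and its call was lost without any 1 library of the other line (adjusted p = 0.0766 to 0.0994). IGHM, the mu heavy chain, was lower in TOM-1 by 0.99 ± 0.22 on the log2 scale (adjusted p = 0.00401), and IGKC, the kappa light chain constant region, was at 3.98, 1.99 and 9.82 CPM there with a single read in the other line.

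Downstream of the receptor, BLNK, the adaptor that SYK phosphorylates, was at 272 ± 39.3 CPM in TOM-1 against 19 ± 1.66 CPM (3.84 ± 0.16, adjusted p = 1.21e-08). The kinases themselves were lower in TOM-1. SYK was at 72.2 ± 0.648 against 189.7 ± 16.4 CPM (-1.39 ± 0.10), LYN differed by -1.25 ± 0.17, and LCK, better known from T cells, by -2.50 ± 0.24. BTK was at 158 ± 2.65 against 195 ± 7.15 CPM, a difference of -0.31 ± 0.09 (adjusted p = 0.0208). The BTK call was lost without replicate 2 of RS4;11 (adjusted p = 0.0501) and with no filter on low counts (adjusted p = 0.209).

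Surface antigens used in leukaemia typing were mostly higher in TOM-1: of 34 tested, 18 were higher and 7 lower (median 1.16). These are 52.9% and 20.6%, against 16.2% and 18.4% of all genes. MME, which codes for CD10, the common leukaemia antigen, was at 587, 577 and 283 CPM in TOM-1 and at 0.0858, 0.206 and 0 CPM in the other line. MS4A1, which codes for CD20, was at 347, 335 and 245 CPM against 0, 0 and 0.335 CPM. CD34, the progenitor antigen, was at 25.4 ± 2.78 against 1.45 ± 0.894 CPM (4.12 ± 0.39, adjusted p = 5.53e-06). These antigens had clear reads in each TOM-1 library, and the first pair had almost none in the other line.

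Other antigens were nearly absent from TOM-1. PTPRC, which codes for the pan-leukocyte phosphatase CD45, was at 3.24, 1.25 and 0 CPM there and at 459, 476 and 457 CPM in RS4;11 (-8.14 ± 0.68, adjusted p = 1.85e-06). CD44, the hyaluronan receptor, was at 0 in TOM-1 and at 64.4, 67.7 and 75.1 CPM in the other line, at least 564-fold apart. CD38, an antigen of B precursors and plasma cells, did not pass the test with all libraries, at 82.1 ± 11.9 and 70.3 ± 13.6 CPM (adjusted p = 0.309). Without replicate 3 it was called higher in TOM-1 (0.33, adjusted p = 0.016).

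Antigen presentation genes were the most one-sided list: 23 of 25 tested were higher in TOM-1 and none lower, with a median of 1.75. Without replicate 3 the counts were 23 higher and 1 lower, the median was 1.37, and the lower gene was HLA-F. HLA-DRA, the alpha chain of the DR dimer, was at 726, 713 and 921 CPM in TOM-1 and at 157, 153 and 154 CPM in the other line (2.34 ± 0.12, adjusted p = 3.55e-08). HLA-DRB5, HLA-DPB1 and HLA-DPA1 were higher by 4.90, 3.81 and 3.32. CIITA, the master regulator of class II genes, was higher by 1.64 ± 0.13, and B2M, the light chain of class I molecules, by 1.23 ± 0.16. Summed over the list, the level was 10402 to 18286 CPM in TOM-1 against 4437 to 4502 CPM. MHC genes are polymorphic and near-identical to one another, so the split of reads among them depends on the alleles of each line and on the counting.

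**Figure D2:**
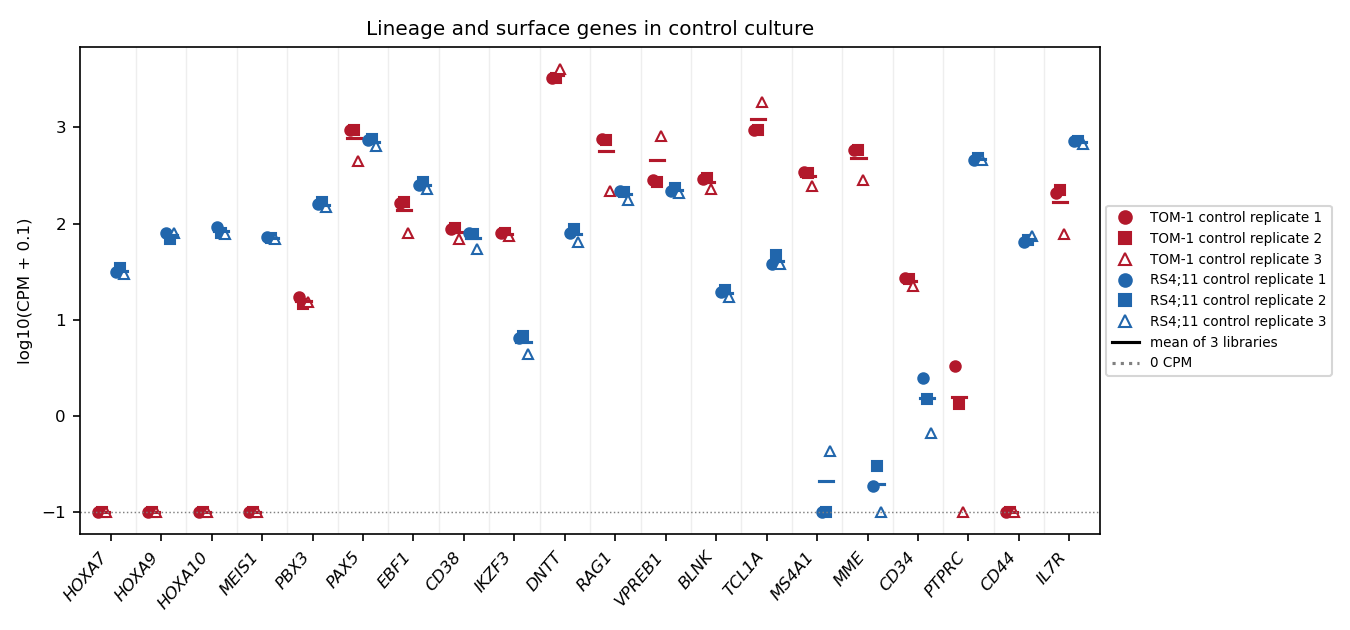
Levels of 20 lineage genes in each control library, on a log10 axis of CPM plus 0.1, with a point per library and a bar at the mean of 3. HOXA7, HOXA9, HOXA10, MEIS1 and CD44 sit at 0 in TOM-1, and MME and MS4A1 lie near 0 in the other line.

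Markers of other cell types were checked as whole lists, and some had reads in one line. In these bulk samples, fewer cells of a type and less RNA per cell cannot be told apart. CD3E and HBB had no read in any of the 6 libraries, and LYZ had none in TOM-1 and 0.872 CPM in RS4;11. The summed level of 32 myeloid genes was 162.7 to 167.7 CPM in TOM-1 against 258.1 to 262.2 CPM, with 14 genes at 0 in TOM-1, 7 at 0 in the other line and 6 at 0 in both. Single myeloid genes differed in both directions: 5 of 15 tested were higher in TOM-1 and 7 lower. MPO, myeloperoxidase, was at 14, 10.9 and 21.0 CPM in TOM-1 against 0.427 ± 0.352 CPM (5.18 ± 0.52), and ANPEP, which codes for CD13, was higher by 3.91 ± 0.52. FUT4, which makes the CD15 sugar epitope, was at 8.60 ± 3.93 against 124.9 ± 4.56 CPM (-3.85 ± 0.28), and FCGR2A and CSF1R were lower by 3.05 and 1.98 on the log2 scale.

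T and NK genes summed to 262 to 445 CPM in TOM-1 and to 572 to 638 CPM in the other line, with 17 of 28 genes at 0 in TOM-1, 12 in the other line and 11 in both. TBX21, a T-box factor, was higher in TOM-1 by 3.75, and GATA3 and the T-cell receptor constant gene TRAC were lower by 2.05 and 1.59. Erythroid and megakaryocyte genes summed to 178 to 276 against 324 to 358 CPM, with 14 of 21 at 0 in TOM-1, 13 in the other line and 12 in both. Stromal, endothelial and epithelial genes summed to 221 to 262 against 37.0 to 46.5 CPM, with 11 of 15 at 0 in TOM-1, 10 in the other line and 10 in both. Of the 4 tested, 1 was higher in TOM-1 and 2 were lower (median -0.43). The higher one, which made up nearly all of the sum in TOM-1, was PECAM1, which codes for CD31 and is also made by B-cell precursors, at 253, 249 and 209 CPM against 0.472, 1.11 and 0.143 CPM (8.64 ± 0.45, adjusted p = 4.64e-08).

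Genes around the fusion kinase of TOM-1 differed in parts. Of 28 tested genes of ABL1, BCR and STAT5 output, 10 were higher in TOM-1 and 5 lower (median 0.26). These are 35.7% and 17.9%, against 16.2% and 18.4% of all genes. ABL1 was at 306, 295 and 171 CPM in TOM-1 and at 171, 158 and 151 CPM in the other line. It was called higher by 0.69 ± 0.18 (adjusted p = 0.0108), and the difference was 0.91 without TOM-1 replicate 3. The call was lost without replicate 2 or 3 of the other line (0.64 and 0.61) and without replicate 1 or 2 of TOM-1 (0.50 and 0.55). BCR was lower by 0.59 ± 0.11 on the log2 scale (adjusted p = 0.00161). A gene-level count does not tell fusion transcripts from those of the normal allele.

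STAT5A, a target of the kinase, was at 186, 171 and 198 CPM in TOM-1 against 27.6, 26.9 and 28.6 CPM (2.74 ± 0.12, adjusted p = 1.89e-08). STAT5B differed by 0.87 ± 0.16. Among the genes that STAT5 switches on, the feedback inhibitor CISH was at 8.61 ± 2.48 against 3.53 ± 0.750 CPM (1.29 ± 0.27) and SOCS2 was higher by 0.61 ± 0.10, whereas the kinase PIM1 was lower by 1.00 ± 0.21 on the log2 scale (adjusted p = 0.0029). GAB1, a signalling adaptor, was higher by 1.6 ± 0.27.

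Feedback genes of the ERK cascade, whose RNA is used as a readout of ERK output, were more often higher in TOM-1: 13 of 40 tested were higher and 4 lower (median 0.48). The shares were 32.5% and 10%, against 16.2% and 18.4% of all genes. DUSP6, the phosphatase that inactivates ERK, was at 244, 248 and 189 CPM in TOM-1 and at 6.09, 5.19 and 4.35 CPM in the other line (5.44 ± 0.21, adjusted p = 9.33e-09). The ETS factors ETV4 and ETV5 were higher by 7.71 ± 0.58 and 3.50 ± 0.18, and the immediate early gene EGR1 was at 24.2 ± 5.6 against 2.98 ± 1.25 CPM (3.03 ± 0.36). SPRY4, a feedback inhibitor, was higher by 2.50 ± 0.39, while its relative SPRY2 was at 35.5 ± 1.17 and 34.9 ± 3.33 CPM (adjusted p = 0.906). DUSP1, a broader MAPK phosphatase, was lower by 1.13 ± 0.11 on the log2 scale, and RASGRP1, a RAS activator, by 1.02 ± 0.26. MYC was at 459.6 ± 32.3 and 469.7 ± 19.2 CPM (-0.03 ± 0.10, adjusted p = 0.845). An antisense gene overlaps 40.5% of the exonic bases of DUSP6.

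Of 31 tested genes of PI3K, AKT and FOXO signalling, 6 were higher and 7 lower with all libraries, which is 19.4% and 22.6%, near the 16.2% and 18.4% of all genes. Without replicate 3 the counts were 14 higher and 8 lower, where 25.4% and 27.5% of all genes were called. INPP4B, a phosphoinositide phosphatase, was at 74.6 ± 38.7 against 4.60 ± 0.705 CPM (4.02 ± 0.39, adjusted p = 6.32e-06), and the regulatory subunit gene PIK3R3 was higher by 3.20 ± 0.20. IRS1, the insulin receptor adaptor, was at 1.42, 1.33 and 0 CPM in TOM-1 and at 31.8, 32.7 and 24.3 CPM in the other line (-4.90 ± 0.54, adjusted p = 1.96e-05). PIK3R5 was lower by 2.71 ± 0.42 on the log2 scale. IRS2 was lower by 1.01 on that scale, by 0.67 without replicate 3, and its call was lost without replicate 2 of the other line (-0.93, adjusted p = 0.0745).

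Of 32 tested cytokine and growth factor receptors, 10 were higher in TOM-1 and 7 lower, and 18 and 8 without replicate 3. With all libraries the shares were 31.2% and 21.9%, against 16.2% and 18.4% of all genes. FGFR1 was at 618, 611 and 407 CPM in TOM-1 and at 12.4, 9.35 and 14.9 CPM in RS4;11 (5.48 ± 0.23, adjusted p = 1.12e-08). IL3RA, the interleukin 3 receptor alpha chain, was higher by 2.43 ± 0.23, whereas CSF2RB, the beta chain it pairs with, was at 0.369, 0.468 and 0 CPM in TOM-1 against 24.3, 34.0 and 29.5 CPM (-6.55 ± 0.47). IL7R, the main growth receptor of B precursors, was at 210.1, 221.1 and 77.1 CPM against 721, 727 and 668 CPM (-2.06 ± 0.29, adjusted p = 0.000153). PDGFRB was lower by 2.06 ± 0.23 on the log2 scale. CRLF2, which pairs with IL7R, had 52 reads over the 3 TOM-1 libraries and none in the other line, at least 5.62-fold higher.

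Toll-like receptor and NF-kB genes leaned the other way as a list, with 14 lower in TOM-1 and 7 higher of 33 (median -0.34). The shares were 42.4% and 21.2%, against 18.4% and 16.2% of all genes. TLR7, TLR10 and TLR6, sensors of microbial RNA and lipids, were lower by 4.76 ± 0.70, 3.95 ± 0.46 and 3.08 ± 0.70 on the log2 scale. TLR10 was at 1.74 ± 1.09 CPM in TOM-1 and at 28.0 ± 0.461 CPM in the other line. TNFAIP3, the A20 feedback inhibitor of NF-kB, went the opposite way, at 212, 202 and 103 CPM against 7.60 ± 2.32 CPM (4.50 ± 0.30, adjusted p = 2.73e-07). CD83, an activation antigen, was higher by 3.06 ± 0.26.

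Of 25 tested Wnt and Notch genes, 5 were higher, 4 lower and 16 not called, which is near the shares of all genes (16.2% and 18.4%). The counts were 9 and 4 without replicate 3, and 4 and 0 with the 6 control libraries alone. DTX1, a Notch target, was at 59.96, 50.7 and 79.9 CPM in TOM-1 against 0, 0.371 and 0 CPM, and the Wnt receptor FZD6 was higher by 4.75 ± 0.27. AXIN2, a Wnt target, was at 5.62 ± 1.54 against 0.374 ± 0.228 CPM (3.90 ± 0.56), with 25.2% of its exonic bases shared with another gene. The receptor NOTCH2 was lower by 2.47 ± 0.52 on the log2 scale.

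Of 37 tested interferon-stimulated genes, 7 were higher in TOM-1, 8 lower and 22 not called (median 0.06). These are 18.9% and 21.6%, near the shares of all genes (16.2% and 18.4%). Without replicate 3 the counts were 13 higher and 11 lower. The membrane restriction factors IFITM3 and IFITM1 were higher by 5.68 ± 0.38 and 2.65 ± 0.32, and HERC5, an ISG15 ligase, by 2.38 ± 0.17. IFI44 had no read in TOM-1 and 9.86 ± 1.52 CPM in the other line, and MX2 and OAS3 were lower by 4.73 ± 0.54 and 3.08 ± 0.44 on the log2 scale. IFITM3 and IFITM1 share 21.3% and 32.5% of their exonic bases with other genes and are close copies of each other, so their levels are uncertain.

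Of 28 genes of the BCL2 family and its partners, 8 were higher in TOM-1 and 7 lower. These are 28.6% and 25%, against 16.2% and 18.4% of all genes. The split was 3 higher and 6 lower without replicate 2 of RS4;11, 4 and 8 with a replicate block, and 3 and 3 with the 6 control libraries alone. The effectors BAX and BAK1 were higher by 1.13 ± 0.25 and 0.88 ± 0.19, and BAX by 0.65 without replicate 3. The BH3-only genes BID and PMAIP1 were lower by 1.78 ± 0.19 and 0.73 ± 0.13 on the log2 scale. Of the survival genes that drugs target, BCL2 was at 229, 234 and 104 CPM in TOM-1 and at 290.1, 303 and 251 CPM in the other line, not called with all libraries (-0.57 ± 0.24, adjusted p = 0.0824) and called lower without replicate 3 (-0.29, adjusted p = 0.00345), without replicate 1 (-0.78) and without replicate 2 (-0.79). BCL2L1 and MCL1 were not called (0.22 and -0.22, adjusted p = 0.369 and 0.433), and without replicate 3 they were at -0.02 and 0.02.

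The D cyclins differed in opposite directions. CCND2 was at 115, 113 and 155 CPM in TOM-1 and at 0, 0 and 0.239 CPM in RS4;11, while CCND3 was at 463, 459 and 613 CPM against 1116, 1062 and 1012 CPM (-1.06 ± 0.13, adjusted p = 3.75e-05). Of 23 tested genes of this list, 7 were higher in TOM-1 and 6 lower (30.4% and 26.1%, against 16.2% and 18.4% of all genes). MDM2, the ligase that degrades p53, was at 958, 974 and 676 CPM against 117, 110.1 and 99.3 CPM (3.00 ± 0.15, adjusted p = 3.14e-08), and the CDK inhibitor CDKN2D was lower by 1.12 ± 0.26 on the log2 scale.

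**Figure D3:**
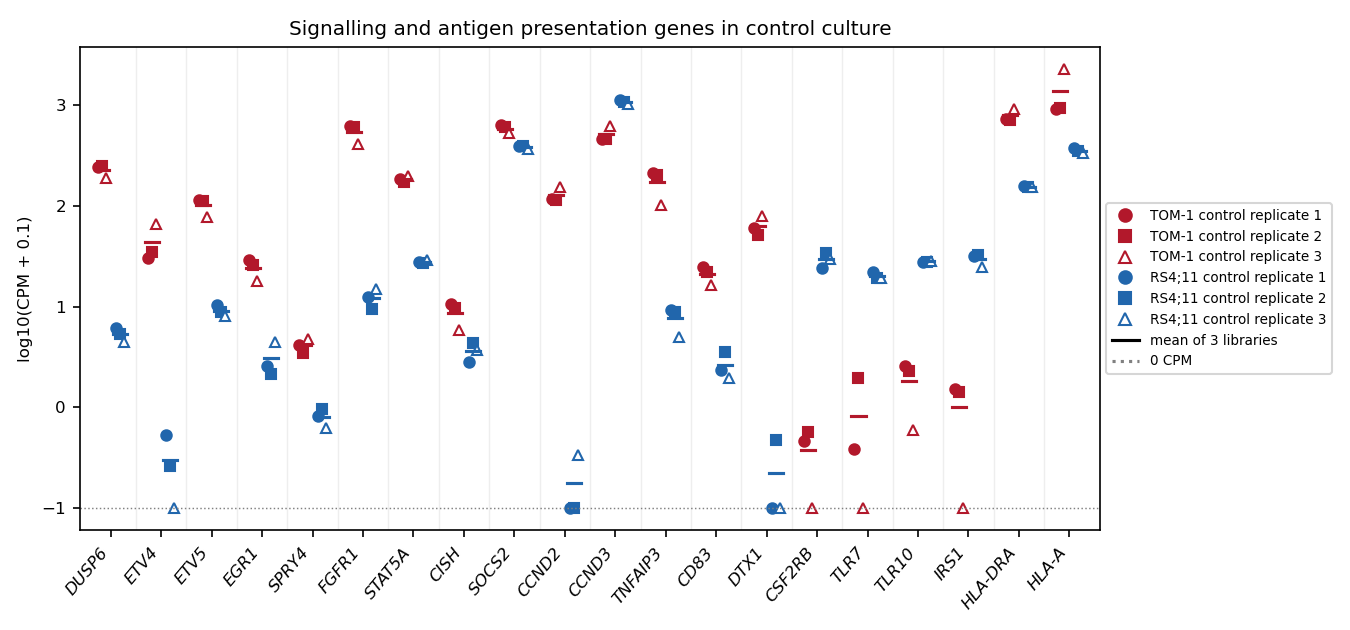
Levels of 20 signalling genes in each control library, on a log10 axis of CPM plus 0.1, with a point per library and a bar at the mean of 3. DUSP6, ETV4, FGFR1, CCND2 and DTX1 lie far higher in TOM-1, and CSF2RB, TLR7 and IRS1 far lower.

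The CDK inhibitor gene CDKN2A lay in a stretch of chromosome 9 without a read in RS4;11. From MLLT3 to CDKN2B-AS1 (chr9:20341665-22121097, 1779 kb) 9 consecutive genes at 1 CPM or more in TOM-1 were at the floor in the other line. Over all 57 genes of the table that start in this interval, the RS4;11 control libraries held 0 reads and those of TOM-1 held 14425, spread over 29 genes. Of 15 tested, 13 were called higher in TOM-1. MTAP, which salvages methylthioadenosine to methionine and adenine, was at 32.9, 31.9 and 21.6 CPM, at least 218-fold higher, and KLHL9 and FOCAD were at least 371-fold and 123-fold higher. CDKN2A itself was low in TOM-1, at 1.99, 2.81 and 0 CPM, at least 12.1-fold higher, and CDKN2B was at 0.881, 1.05 and 0 CPM, at least 4.89-fold higher. The next genes at 1 CPM or more in either line had reads in both, as CAAP1 (31.1 against 36.5 CPM) and PLAA (45.1 against 44.5 CPM) show. These genes do not adjoin the stretch. CAAP1 starts at 26840685, and on the other side the nearest such gene ends at 19455173, so the edges of the stretch are not resolved. DNA was not measured, and whether the interval is absent from the genome of that line was not tested.

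The CDKN2A call was lost without replicate 2 of RS4;11 (adjusted p = 0.0518). The CDKN2B call was lost without any 1 library of that line (adjusted p = 0.0674 to 0.0735) and without replicate 1 or 2 of TOM-1 (0.0571 and 0.0593). This was the longest such run: among 13636 genes there were 22 runs of 3 or more neighbours at the floor in one line, 15 in TOM-1 and 7 in the other. The next were 7 genes of the immunoglobulin heavy chain variable region at the floor in TOM-1 and 6 genes of the T-cell receptor gamma locus at the floor in the other line.

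Arginine genes were called 5 higher and 5 lower of 20, which is 25% each, against 16.2% and 18.4% of all genes. Without replicate 3 they were 7 and 8 of 21, or 33.3% and 38.1%, against 25.4% and 27.5%. ASS1 (chr9:130444929-130501274), whose promoter is shown above, was at 164, 180.3 and 140.4 CPM in RS4;11 and had no read in 3 TOM-1 libraries. ASL, which splits argininosuccinate into arginine and fumarate, was expressed in both lines at 18.5 ± 5.78 and 24.8 ± 1.56 CPM and was not called with all libraries (-0.42 ± 0.19, adjusted p = 0.105). It was called lower without replicate 3 (-0.71, adjusted p = 9.72e-05). Other steps were present in one line each. OAT, which makes ornithine and glutamate semialdehyde interconvertible, was at 35.6, 33.5 and 21.8 CPM in TOM-1 and absent from the other line, at least 230-fold higher. GATM, which uses arginine for creatine, was at 16.4, 15.0 and 13.9 CPM in RS4;11 with 3 reads in TOM-1.

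The cationic amino acid transporters that carry arginine also differed in opposite directions. SLC7A2 was at 29.6, 31.4 and 14.1 CPM in TOM-1 and absent from the other line, at least 190-fold higher. SLC7A3 was at 0.207 ± 0.252 CPM in TOM-1 and at 15.0 ± 1.63 CPM in RS4;11 (-6.40 ± 0.59, adjusted p = 4.16e-06). NOS2, which turns arginine into citrulline and nitric oxide, was at 12.9 ± 1.04 against 3.27 ± 0.509 CPM (1.98 ± 0.21). ARG2, the mitochondrial arginase, was at 0.579 ± 0.120 and 1.28 ± 0.694 CPM and was not called (adjusted p = 0.16).

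In serine synthesis the RNA of the middle enzyme was nearly absent from TOM-1. PSAT1 (chr9:78297143-78330093), the aminotransferase, was at 0.256, 0 and 0 CPM there and at 123, 133 and 133 CPM in RS4;11 (-10.12 ± 0.55, adjusted p = 5.79e-08). The enzymes on either side of it were higher in TOM-1. PHGDH, the first step, was at 346, 347 and 705 CPM against 263, 239.8 and 257 CPM (0.88 ± 0.23, and 0.45 without replicate 3), and PSPH, the last, differed by 0.96 ± 0.15 (adjusted p = 0.00039). Of 29 tested genes of serine, glycine and one-carbon metabolism, 7 were higher and 5 lower. These are 24.1% and 17.2%, against 16.2% and 18.4% of all genes. FPGS, which traps folate and methotrexate in the cell, was higher by 0.94 ± 0.24 and by 0.48 without replicate 3. GGH, which reverses this, was lower by 1.04 ± 0.16 on the log2 scale, and the mitochondrial folate enzyme MTHFD2 by 0.54 ± 0.13.

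ASNS, the asparagine synthetase that sets the response to asparaginase, was at 0.808 ± 0.800 and 0.465 ± 0.333 CPM, with 0 reads in TOM-1 replicate 3. It was not called (0.81 ± 0.94, adjusted p = 0.557), and 44.6% of its exonic bases are shared with another gene of the same strand, so reads of the gene may not have been counted to it. Of 21 tested genes of asparagine, aspartate and glutamine, 1 was higher in TOM-1 and 4 lower, and 6 and 8 without replicate 3. The shares were 4.76% and 19.05%, against 16.2% and 18.4% of all genes. Without replicate 3 they were 28.6% and 38.1%, against 25.4% and 27.5%. SLC25A13, the aspartate and glutamate carrier of mitochondria, was at 14.2 ± 3.37 against 66.2 ± 8.22 CPM (-2.22 ± 0.17, adjusted p = 1.02e-06). The aminotransferase GPT2 was lower by 1.59 ± 0.11 and GLUL, glutamine synthetase, by 0.60 ± 0.11 on the log2 scale.

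Amino acid transporters were called 10 higher and 4 lower of 26 (median 0.34). These are 38.5% and 15.4%, against 16.2% and 18.4% of all genes. SLC6A6, the taurine transporter, and SLC6A9, a glycine transporter, were higher in TOM-1 by 4.12 ± 0.45 and 3.04 ± 0.16, and SLC38A5, a glutamine and serine carrier, was at 220.4 ± 66.0 against 92.2 ± 9.998 CPM (1.26 ± 0.18). SLC36A4 had no read in TOM-1 and 30.2 ± 1.61 CPM in the other line, at least 246-fold lower. SLC7A11, the cystine importer, was at 46.0, 46.3 and 11.0 CPM in TOM-1 and at 15.2, 15.7 and 12.5 CPM in the other line. It was called with all libraries (1.26 ± 0.38, adjusted p = 0.0239) and without replicate 3 (1.67), and lost the call when any of the other 5 control libraries was left out (adjusted p = 0.0641 to 0.0943).

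Targets of ATF4, the factor of the amino acid response, were called 13 higher and 5 lower of 31 (median 0.62, and 0.45 without replicate 3) in cells that had not been deprived of arginine. The shares were 41.9% and 16.1%, against 16.2% and 18.4% of all genes. STC2, a secreted glycoprotein, was at 60.5, 56.1 and 48.2 CPM in TOM-1 against 2.77 ± 0.442 CPM (4.31 ± 0.16, adjusted p = 5.52e-09), and the factors ATF5 and JDP2 were higher by 1.91 ± 0.16 and 1.81 ± 0.22. An antisense gene overlaps 21.2% of the exonic bases of ATF5. VLDLR, a lipoprotein receptor, was at 0.995, 1.76 and 0 CPM against 76.8, 79.1 and 74.0 CPM (-6.29 ± 0.54, adjusted p = 2.15e-06).

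Glycolysis and pentose phosphate genes were called 5 higher and 10 lower of 37, and 8 higher and 20 lower without replicate 3. The shares were 13.5% and 27.0%, against 16.2% and 18.4% of all genes. Without replicate 3 they were 21.6% and 54.1%, against 25.4% and 27.5%. The isoform genes ENO2 and SLC16A3, an enolase and a lactate exporter, were at 35.3 ± 3.08 and 20.7 ± 3.80 CPM in TOM-1 and at 0.490 ± 0.171 and 0.652 ± 0.322 CPM in the other line. They were higher in TOM-1 by 6.17 ± 0.35 and 4.99 ± 0.42. SLC2A6, a glucose transporter family member, and PFKFB3, which sets the level of the activator of phosphofructokinase, were lower by 3.19 ± 0.23 and 2.05 ± 0.13 on the log2 scale. HK2, the inducible hexokinase, was called lower at -0.72 ± 0.24, at -0.42 without replicate 3, and the call was lost without any 1 library of RS4;11 (adjusted p = 0.0625 to 0.0828).

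The lactate dehydrogenases turned on replicate 3. LDHB was at 78.7, 70.4 and 251 CPM in TOM-1 and at 128, 132 and 114 CPM in the other line, so replicates 1 and 2 lay below that line and replicate 3 above it. It was not called with all libraries (0.10 ± 0.37, adjusted p = 0.876) and was called lower without replicate 3 (-0.74, adjusted p = 3.18e-07). LDHA was at 903 ± 138 and 914 ± 24.6 CPM (adjusted p = 0.929, and -0.15 with adjusted p = 0.0237 without replicate 3).

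Oxidative phosphorylation was the list that depended most on that library. Of 49 tested nuclear subunit genes, 4 were lower and none higher in TOM-1 with all libraries, with a median of 0.04. The share called lower was 8.2%, against 18.4% of all genes. Without replicate 3, 37 were lower and 1 higher, with a median of -0.39. The summed level ran from 5898 to 11631 CPM over the TOM-1 libraries and from 8093 to 8218 CPM over the others, with the top value in replicate 3. Ribosomal protein genes took 17.8% of the reads of that library and 8.36% and 8.13% of those of its replicates, and the part of this shift in the result was not tested. SDHC, a membrane subunit of complex II, was lower with either set: 16, 17.1 and 18.6 CPM in TOM-1 against 78.7, 70.2 and 68.9 CPM (-2.07 ± 0.12, adjusted p = 1.21e-07).

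In the citric acid cycle and the mitochondrial carriers, 4 genes were higher and 12 lower of 35. These are 11.4% and 34.3%, against 16.2% and 18.4% of all genes. The counts were 6 and 18 of 36 without replicate 3, and 3 and 3 with the 6 control libraries alone. Around pyruvate dehydrogenase, the subunit gene PDHA1 and its inhibitory kinases PDK1 and PDK3 were higher in TOM-1 by 0.88 ± 0.12, 1.29 ± 0.15 and 1.67 ± 0.18. DLAT and DLD, which code for some of its other subunits, were lower by 1.14 ± 0.25 and 1.10 ± 0.12 on the log2 scale. MDH2, mitochondrial malate dehydrogenase, was at 250.4 ± 112 against 518 ± 1.64 CPM (-1.05 ± 0.23, adjusted p = 0.00359, and -1.48 without replicate 3).

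Cholesterol synthesis and uptake was lower in TOM-1 as a list: of 28 tested genes, 19 were lower and none higher, with a median of -0.95, and 23 lower and 1 higher without replicate 3 (median -0.99). The early enzyme HMGCS1 was at 79.9, 80.5 and 29.3 CPM in TOM-1 against 225, 223 and 213 CPM (-1.80 ± 0.29), and SQLE, squalene epoxidase, was lower by 1.72 ± 0.17 on the log2 scale. HSD17B7 was lower by 1.85 ± 0.16 on that scale. CYP51A1, lanosterol demethylase, had no read in TOM-1 and 7.64 ± 1.19 CPM in the other line, but 79.4% of its exonic bases are shared with another gene of its strand. The summed level of the list was 1953 to 1972 CPM in TOM-1 and 3448 to 3634 CPM in the other line, without overlap and without replicate 3 standing out.

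Fatty acid and lipid genes were lower more often than higher, 16 against 8 of 33. The shares were 48.5% and 24.2%, against 18.4% and 16.2% of all genes. The desaturase SCD was at 109.9, 105.5 and 54.0 CPM against 285, 284 and 253 CPM (-1.61 ± 0.22, adjusted p = 0.000116), and the elongase ELOVL6 was at 13.1 ± 2.95 against 81.2 ± 5.65 CPM (-2.63 ± 0.16). Other genes of fat handling were higher in TOM-1: SCD5, a second desaturase, by 1.97 ± 0.22, FADS3 by 2.06 ± 0.18, and CPT1A, the gate of mitochondrial fat oxidation, by 1.6 ± 0.14. ACLY, which makes cytosolic acetyl-CoA, was called lower at -0.71 ± 0.22 (adjusted p = 0.0265), at -0.43 without replicate 3, and lost the call without replicate 1 or 2 of RS4;11 (adjusted p = 0.059 and 0.0669).

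Glutathione and redox genes were called 7 higher and 12 lower of 36, with 7 and 18 without replicate 3. With all libraries the shares were 19.4% and 33.3%, against 16.2% and 18.4% of all genes. Without replicate 3 they were 19.4% and 50%, against 25.4% and 27.5%. GSTM1, a glutathione transferase that many people lack through a common germline deletion, had no read in TOM-1 and 31.5 ± 2.77 CPM in the other line, at least 257-fold lower, and GSTM4 was lower by 2.01 ± 0.17 on the log2 scale. GSTM genes are close copies, and GSTM1 shares 22.3% of its exonic bases with another gene. The peroxiredoxin genes PRDX4 and PRDX2 were higher in TOM-1 by 1.52 ± 0.29 and 1.07 ± 0.23, and by 0.95 and 0.64 without replicate 3.

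Nucleotide synthesis and salvage genes were 12 lower and 1 higher of 39, and 22 lower and 4 higher without replicate 3. With all libraries the shares were 30.8% and 2.6%, against 18.4% and 16.2% of all genes. PRPS2, which makes phosphoribosyl pyrophosphate, was at 69.4, 65.1 and 50.9 CPM in RS4;11 and had no read in TOM-1, at least 504-fold lower. SAMHD1, which destroys dNTPs and the active form of cytarabine, was at 2.05, 1.99 and 1.49 CPM against 121, 112 and 103 CPM (-5.91 ± 0.20, adjusted p = 4.85e-09). The 1 higher gene was NT5C3A, a pyrimidine nucleotidase, by 1.11 ± 0.15. CAD, the first pyrimidine enzyme, was not called (-0.07 ± 0.14, adjusted p = 0.738, and 0.06 without replicate 3).

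**Figure D4:**
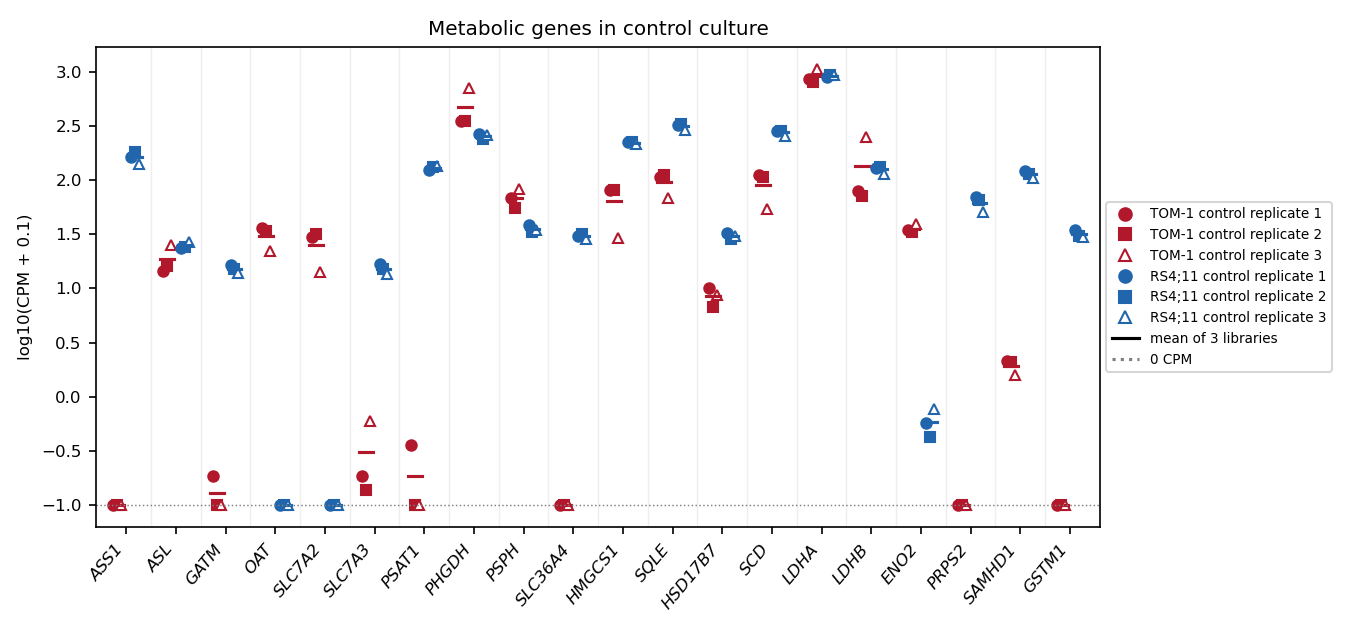
Levels of 20 metabolic genes in each control library, on a log10 axis of CPM plus 0.1, with a point per library and a bar at the mean of 3. ASS1, SLC36A4, PRPS2 and GSTM1 sit at 0 in TOM-1, OAT and SLC7A2 sit at 0 in the other line, and the TOM-1 points of LDHB lie on both sides of the other line.

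Some of these genes lay in long stretches that leaned one way. By chromosome, the median difference was -0.29 on chromosome 9 and -0.23 on chromosome 7 (-0.37 and -0.24 without replicate 3), while the other autosomes ranged from -0.11 to 0.20. The stretch from 60 to 120 Mb of chromosome 9 held 201 tested genes with a median of -1.10 (-0.99 without replicate 3), of which 61.7% were called lower and 82.6% were below 0. It was followed by 274 genes from 120 to 140 Mb with a median of -0.02 (-0.25 without replicate 3). Within these, the 125 genes from 120 to 130 Mb were still low, with a median of -0.45 and 38.4% called lower. The 149 genes from 130 to 140 Mb had a median of 0.20 and 19.5% called lower. On chromosome 7, 128 genes from 30 to 60 Mb had a median of 1.12 (0.97), with 59.4% called higher and 80.5% above 0, and 564 genes from 60 to 160 Mb had a median of -0.41 (-0.40). These bounds were chosen after the values were seen, and copy number was not measured.

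SYK and PSAT1 lie in the low stretch of chromosome 9, in windows of 10 Mb whose medians were -1.25 and -0.92. SYK itself differed by -1.39, near its window, and PSAT1 by -10.12, far below it. ASS1 and ABL1 share a window with a median of 0.20, outside the low stretch. On chromosome 7, CDK6 (-0.92) and MDH2 (-1.05) lie in windows with medians of -0.52 and -0.67. IKZF1, at -0.90, was lower in TOM-1 inside a window with a median of 0.70, whereas NT5C3A, at 1.11, was close to its window at 1.25. HOXA9 lies just before the high stretch, in a window with a median of -0.77.

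**Figure D5:**
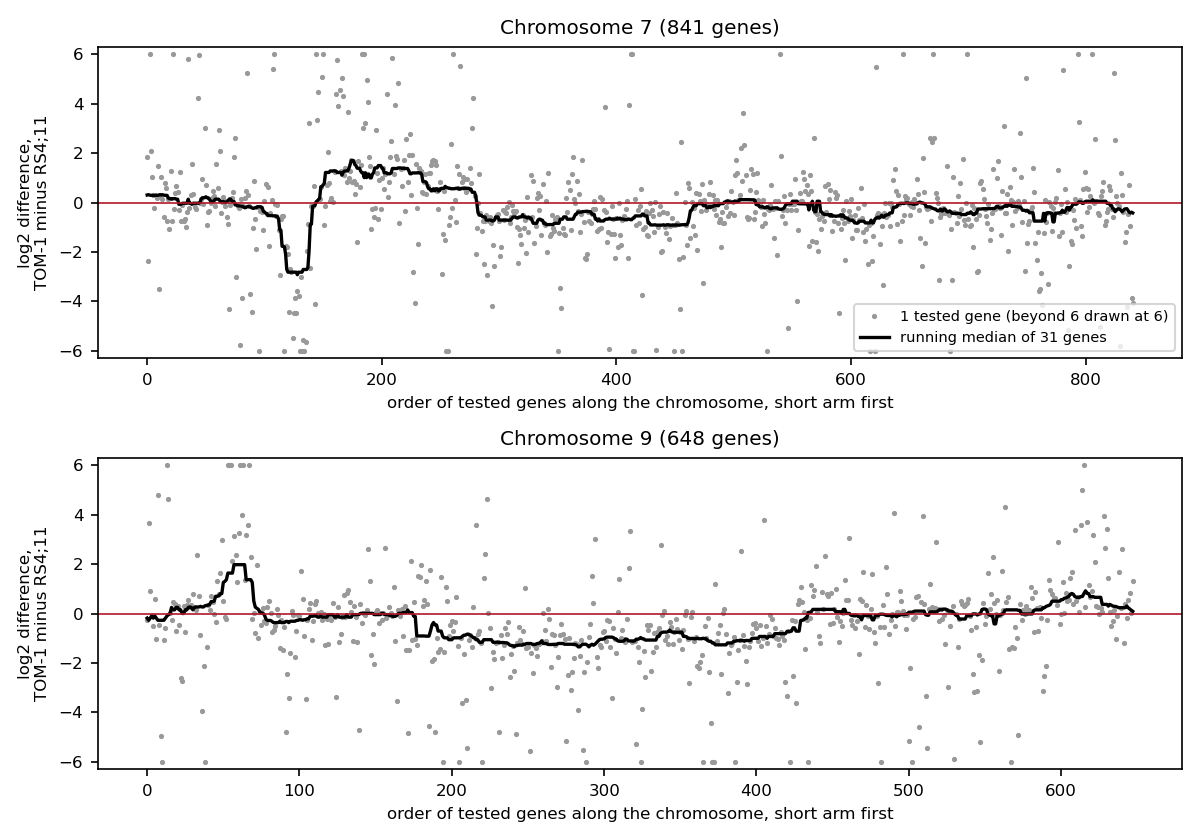
Difference of each tested gene (log2 TOM-1 minus RS4;11, vertical axis, values beyond 6 drawn at 6) by its order along chromosome 7 (841 genes) and chromosome 9 (648 genes), with the running median of 31 genes as a line. Genes absent from one line enter points and line at their bound, where they have one, and not at the fitted difference. The line rises above 0 over one stretch of chromosome 7 and runs below 0 over one of chromosome 9.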

How the data were processed

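The values the authors deposited are counts, whole numbers of reads for each Ensembl gene in each library, with no normalization. Per the submitters' processing notes, reads were processed with STAR, SAMtools and featureCounts on hg38. Versions, the annotation release and the use of strand are not given in the sources used here, so reads of overlapping or antisense genes cannot be told apart. Groups came from the sample titles and columns from the descriptions. Symbols, positions and overlaps came from GENCODE 29 on GRCh38 (58396 of 60664 identifiers matched) and promoters from RefSeq on GRCh38.p14.

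Genes were filtered with filterByExpr, which left 17349 of the 60664 genes (29301 had 0 counts in every library), and fitted with edgeR 4.0.16 (glmQLFit and glmQLFTest, TMM factors, R 4.3.3) as means of 4 groups over all 12 libraries with Benjamini-Hochberg adjustment over all genes tested. Counting error is small at this depth, and the floor of 3 counts equals on average 0.123 CPM for TOM-1 and 0.132 CPM for the other line. The floors cover counting error only, whereas the SE also takes in the spread between libraries as the fit estimated it. No pair of replicates agreed within sampling noise, the lowest chi-square per degree of freedom being 4.93.

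The members and the 30 lists were chosen with earlier results of these data known. Named genes were the 10 with the largest difference in each direction over all genes, and the 3 in each direction per list, among genes called with and without TOM-1 control replicate 3, at 5 CPM or more in the higher line and without overlap of libraries, plus a set of genes named whatever their values. The text describes a part of them, and 5 are not reported here. HOXA5, HOXA7, HOXA13, IKZF1, RAG2, BLNK, HLA-DRA, HLA-F, CIITA, B2M, STAT5B, SPRY2, SPRY4, EGR1, ARG2, HMGCS1, SQLE, the genes beside CDKN2A on chromosome 9 and the markers of other cells at or near 0 fall outside that rule and were chosen after their values were seen. Alternatives were other scalings, filters, tests (DESeq2 1.42.0, limma 3.58.1 voom with sample weights), a replicate block, fewer libraries and leaving out each library.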

Additional observations from a re-analysis of the deposited data

How the results depend on the processing

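The number of genes called, 6014, fell to 3548 with the 6 control libraries alone and was 10037 with voom and sample quality weights. Leaving out each control library in turn gave 4731 to 9681, the highest without TOM-1 control replicate 3, and alternatives chosen after seeing the data that also left out that library gave 8959 with the 5 remaining control libraries alone, 9705 with the DESeq2 Wald test, 9684 with DESeq2 size factors and 9657 with a replicate block. Without that library 7 of the 30 lists had a count of calls that moved by over 1.5 times, and with the 6 control libraries alone 15 did. Whether the replicate numbers pair the lines cannot be settled with 3 libraries per line. Same-numbered libraries correlated in their deviations at 0.037, 0.055 and 0.1. TOM-1 replicate 1 correlated best with replicate 2 of the other line (0.078), while TOM-1 replicates 2 and 3 correlated best with their own number. With a replicate block 5647 genes were called, and VPREB1 and CDKN2B were no longer called (adjusted p = 0.0627 and 0.0827).

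Of 180 named genes called, 150 were called with the same sign in every alternative that gave a value. All 180 were called with the same sign without replicate 3. The naming rule required this, except of the genes named whatever their values. Over all genes, 134 of those called with all libraries were tested but not called without replicate 3. With the 6 control libraries alone 28 were not called: ABL1, ACLY, ATP5F1B, BIRC2, BTK, CDK6, CDKN2D, CTPS2, DNMT3B, EBF1, FPGS, FZD1, HK2, IGHM, IRS2, LILRB1, MDH2, MTHFD2, NDUFA8, NOTCH2, PFKL, PHGDH, RASGRP1, SLC7A11, TFRC, TLR6, VPREB1 and ZNRF3.

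Differences that changed sign were small except those of LDHB and ASNS, and none of these genes was called with all libraries. Leaving out each library in turn, the difference ran from -0.085 to 1.33 for ASNS (lowest without TOM-1 replicate 2), -0.019 to 0.30 for BCL2L1, -0.20 to 0.062 for CAD, -0.27 to 0.030 for FLT3, -0.12 to 0.55 for IGLL1, -0.15 to 0.027 for LDHA, -0.74 to 0.36 for LDHB, -0.40 to 0.022 for MCL1 and -0.069 to 0.41 for PAX5 (below 0 without TOM-1 replicate 1 or 2). For BCL2L1, CAD, FLT3, IGLL1, LDHB and MCL1 the sign changed without TOM-1 replicate 3. Without replicate 3, with the 5 libraries alone, the DESeq2 Wald test, DESeq2 size factors and the block in this order, LDHB was at -0.76, -0.76, -0.76 and -0.80, IGLL1 at -0.14, -0.14, -0.14 and -0.16, CAD at 0.042, 0.044, 0.044 and 0.093, FLT3 at 0.010, 0.012, 0.012 and 0.000205, and BCL2L1 at -0.039, -0.037, -0.037 and -0.0050. MCL1 was at 0.0031, 0.0040 and 0.0039 in the first 3 of these. With voom LDHB was at -0.74, IGLL1 at -0.10, CAD at 0.079 and FLT3 at 0.028, and with the block and all libraries LDHB was at -0.020. With upper-quartile scaling and with the 6 control libraries alone, LDHA was at 0.016 and 0.012. Beyond the libraries left out, the cause was not tested.

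Depth limits genes near the floor, such as ASNS, CRLF2 and CDKN2B. The lines differ in more than their fusions, and 1 line per subtype gives no spread between lines of a subtype.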
